A study of Homo sapiens with 3 samples.

Results

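The IL-6 family cytokines and the receptors that signal through gp130 were examined in the mRNA sequencing of LX-2 cells, an established human hepatic stellate cell line. The group consisted of 9 genes taken by symbol from the 24254 symbols of the deposited table, and each of the 9 was listed once. They were the cytokines IL6, LIF, IL11 and CLCF1, the signal-transducing receptor chains IL6ST (which encodes gp130), LIFR and OSMR, and the ligand-binding receptor chains IL6R and IL11RA. The rule took them by name and has no threshold on expression. One culture received vehicle, one received recombinant human FGF19 (rhFGF19) at 50 ng/mL and one received it at 100 ng/mL, with 1 library per condition, so no difference below had a replicate check and no p-value was computed. All 3 libraries came from LX-2 cells kept in DMEM with fetal bovine serum. The series design gives 24 h of stimulation, whereas the descriptions of the stimulated samples state 72 h and 73 h with the doses the other way round. The doses here follow the sample titles.

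Cytokines of this family share one receptor chain, gp130. IL-6 and IL-11 first bind a ligand-binding chain (IL6R or IL11RA) and then a gp130 pair, LIF and CLCF1 use gp130 with LIFR, and oncostatin M uses gp130 with OSMR or LIFR. The receptor chains carry JAK kinases that phosphorylate STAT3, and SOCS3 limits the signal. In the liver, IL-6 is known as the inducer of the acute-phase response in hepatocytes, and IL-6, LIF and IL-11 are made by activated stellate cells and other fibroblasts.

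The receptors of the family share an extracellular motif, Trp-Ser-X-Trp-Ser (WSXWS), and the coding stretch around it shows how far their base composition differs. The stretches below are shown because the fold changes described later followed GC content. They were read from the listed GENCODE v29 transcript with an ATG start and the longest coding sequence (GRCh38), 5′ to 3′ on the coding strand, with the codons of the motif in capitals. Where a receptor had more than 1 match, the last one in the coding sequence is given.
IL6ST, chr5:55960403-55960477, minus strand: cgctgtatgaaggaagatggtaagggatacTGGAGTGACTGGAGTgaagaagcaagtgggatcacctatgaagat
LIFR, chr5:38502638-38502712, minus strand: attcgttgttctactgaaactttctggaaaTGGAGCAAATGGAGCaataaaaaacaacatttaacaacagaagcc
OSMR, between chr5:38904431-38917547 across 2 exons, plus strand: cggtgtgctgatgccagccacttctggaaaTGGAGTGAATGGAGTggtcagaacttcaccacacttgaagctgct
IL6R, between chr1:154436038-154448126 across 2 exons, plus strand: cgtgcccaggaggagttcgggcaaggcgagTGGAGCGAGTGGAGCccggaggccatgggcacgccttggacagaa
IL11RA, between chr9:34659828-34660275 across 2 exons, plus strand: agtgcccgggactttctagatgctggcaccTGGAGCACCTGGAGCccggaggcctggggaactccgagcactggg

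These 75-base stretches held 46.7% G or C in IL6ST, 34.7% in LIFR and 52.0% in OSMR, against 68.0% in IL6R and 66.7% in IL11RA. The whole coding sequences were divided in the same way, with 40.3% for IL6ST, 38.8% for LIFR and 43.8% for OSMR, and with 59.8% for IL6R and 63.2% for IL11RA. Among the cytokines, the coding sequence of IL6 was the least GC-rich at 50.3%, and those of LIF, CLCF1 and IL11 held 59.9%, 63.3% and 70.0%. The signal-transducing chains were thus the AT-rich part of the group, and the ligand-binding chains and 3 of the 4 cytokines the GC-rich part.

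The unit of the table is FPKM, a fragment count scaled to transcript length and to the library's mapped fragments, which lets levels of different genes be compared. The scaling does not include GC content, so ratios between genes of unlike GC content carry that limit from library to library. The file keeps no read counts, so depth is unknown. Fold changes were taken on the log2(FPKM + 0.1) scale, which understates changes of low genes, for symbols that averaged 0.5 FPKM or more over the 3 libraries, and more than 2-fold was taken as the limit for calling a gene higher or lower, which is the criterion of the study. Of the 9 genes, 8 passed this filter and IL6R did not. LIFR was at 0.39 FPKM in vehicle and passed through its levels in the stimulated libraries. Of the 10 stellate cell markers examined, 6 reached 1 FPKM in a library, among them VIM at 439 to 654 FPKM and COL1A1 at 78.3 to 108 FPKM. LRAT was listed at 0 in all 3 libraries, and DES, PDGFRA and COL1A2 stayed at or below 0.14 FPKM. The 5 hepatocyte markers summed to 11.3 to 12.5 FPKM, and neither the 4 endothelial markers nor the 2 epithelial markers in the table, of 4 looked for, reached 1 FPKM. Of the 5 leukocyte markers 3 were listed, with a sum of 51.9 FPKM in vehicle, 47.0 with 50 ng/mL and 42.4 with 100 ng/mL, most of it CD68, a lysosomal protein.

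Among the cytokines, IL11 (ENSG00000095752, chromosome 19 from 55364382 to 55370463), a cytokine known for its part in fibroblast activation, had the highest level of the 9 genes in every library. It was at 51.3 FPKM in vehicle, 61.0 with 50 ng/mL and 62.3 with 100 ng/mL. The stimulated libraries were close to each other and 1.19-fold and 1.21-fold above vehicle, with log2 fold changes of 0.25 and 0.28. IL11 made up 70.3% of the summed FPKM of the 4 cytokines in vehicle, 63.8% with 50 ng/mL and 66.2% with 100 ng/mL.

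IL6 (ENSG00000136244, chromosome 7 from 22725884 to 22732002), the name-giving cytokine and an inflammatory CAF (iCAF) marker in the study, was at 9.31 FPKM in vehicle, 18.4 with 50 ng/mL and 17.3 with 100 ng/mL. It was higher in both stimulated libraries, by 1.98-fold and 1.86-fold, and stayed just under the 2-fold criterion. Its share of the summed FPKM of the cytokines was 12.7% in vehicle and 19.2% and 18.4% after rhFGF19, so that IL11 exceeded IL6 by 5.51 times in vehicle, 3.32 times with 50 ng/mL and 3.60 times with 100 ng/mL. IL6 had the largest fold change of the 4 cytokines at both doses. IL6 and IL11 differ in transcript GC content (46.0% and 62.9%), which the fold changes followed, as described below. Relative to symbols of similar GC content, IL6 was at -0.20 and -0.27 and IL11 at 0.70 and 0.71.

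LIF (ENSG00000128342, chromosome 22 from 30240453 to 30246759), which signals through gp130 and LIFR, was at 9.13 FPKM in vehicle, 11.2 with 50 ng/mL and 9.99 with 100 ng/mL. Its log2 fold changes were 0.29 and 0.13, and the stimulated libraries differed from each other by about as much as the lower of them differed from vehicle. CLCF1 (ENSG00000175505, chromosome 11 from 67364168 to 67374177), a cytokine of the same receptor pair, was at 3.28 FPKM in vehicle, 5.01 with 50 ng/mL and 4.58 with 100 ng/mL. Both stimulated libraries lay above vehicle, with log2 fold changes of 0.60 and 0.47. None of the 4 cytokines passed 2-fold in either direction at either dose, except that IL6 with 50 ng/mL reached a log2 fold change of 1.11 when the table was rescaled to TPM. Their summed level was 73.0 FPKM in vehicle, 95.5 with 50 ng/mL and 94.1 with 100 ng/mL. The sign of these small differences depended on the scaling, since LIF and CLCF1 turned to -0.032 and -0.083 with 50 ng/mL under quantile normalization, LIF to -0.093 with 100 ng/mL when ratios were centred on the median of the genes that reached 1 FPKM in every library, and LIF and IL11 to -0.42 and -0.15 with 50 ng/mL when the trend on transcript length was removed.

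**Figure D1:**
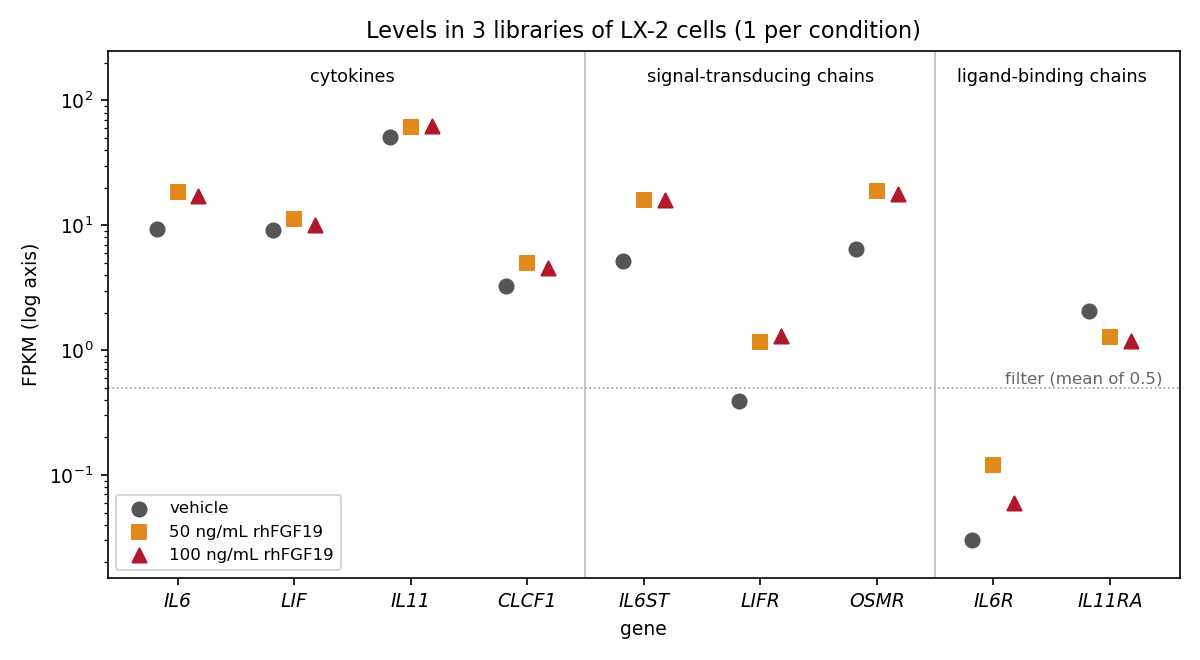
FPKM (log axis) of the 9 genes in the vehicle, 50 ng/mL and 100 ng/mL rhFGF19 libraries, 1 point per library, with the filter value of 0.5 FPKM dotted. IL6ST, LIFR and OSMR stand apart by the gap between vehicle and both stimulated libraries, IL11 is the most abundant gene throughout and IL11RA is the only one that passed the filter and was highest in vehicle.

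The signal-transducing chains had higher fold changes than the cytokines. IL6ST (ENSG00000134352, chromosome 5 from 55935095 to 55995022), which encodes gp130 itself, was at 5.13 FPKM in vehicle, 15.9 with 50 ng/mL and 15.9 with 100 ng/mL. Both stimulated libraries were 3.10-fold and 3.09-fold above vehicle, with log2 fold changes of 1.61 and 1.61 and a difference of -0.0036 between the doses. OSMR (ENSG00000145623, chromosome 5 from 38845858 to 38945596), the oncostatin M receptor chain, was at 6.42 FPKM in vehicle, 18.8 with 50 ng/mL and 17.8 with 100 ng/mL. Its log2 fold changes were 1.53 and 1.46. LIFR (ENSG00000113594, chromosome 5 from 38474668 to 38595404), the chain that LIF and CLCF1 need beside gp130, was at 0.39 FPKM in vehicle, 1.16 with 50 ng/mL and 1.29 with 100 ng/mL. Both stimulated libraries lay above vehicle, by 2.97-fold and 3.31-fold, from a level at which the 2 decimals of the file are coarse. LIFR and OSMR are neighbours on chromosome 5, with 250454 bases between them, and are read from opposite strands.

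All 3 signal-transducing chains thus exceeded vehicle by more than 2-fold at both doses, and none of the other 5 genes that passed the filter did. LIFR lost this call with a pseudocount of 1 FPKM (0.64 and 0.72) and under quantile normalization (0.59 and 0.75). With the trend on transcript length removed, IL6ST (0.85 and 0.86) and LIFR with 50 ng/mL (0.88) lost it. Over all 12422 tested symbols, 39.5% were more than 2-fold higher with 50 ng/mL and 38.6% with 100 ng/mL, so 3 of 8 is near the background. More than 2-fold lower were 1.75% of the symbols with 50 ng/mL and 1.47% with 100 ng/mL, and none of the 8 genes on this scale. The median log2 fold change of the 8 genes was 0.79 with 50 ng/mL and 0.68 with 100 ng/mL, beside 0.62 and 0.62 over all tested symbols.

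The levels of the signal-transducing chains kept similar proportions to each other. IL6ST exceeded LIFR by 13.2 times in vehicle, 13.7 times with 50 ng/mL and 12.3 times with 100 ng/mL. The ratio of IL6ST to OSMR was 0.80 in vehicle, 0.85 with 50 ng/mL and 0.89 with 100 ng/mL, and that of OSMR to LIFR was 16.5, 16.2 and 13.8. These 3 genes summed to 11.9 FPKM in vehicle, 35.9 with 50 ng/mL and 34.96 with 100 ng/mL.

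Of the ligand-binding chains only IL11RA could be compared. IL11RA (ENSG00000137070, chromosome 9 from 34650702 to 34661892), the specific receptor of IL-11, was at 2.05 FPKM in vehicle, 1.28 with 50 ng/mL and 1.19 with 100 ng/mL. It was lower in both stimulated libraries, with log2 fold changes of -0.64 and -0.74, and was the only one of the 8 genes with values below vehicle. Under quantile normalization it was more than 2-fold lower, with log2 fold changes of -1.47 and -1.54, and with the length trend removed it was so with 100 ng/mL, at -1.09. The FPKM of IL11 exceeded that of IL11RA by 25.0 times in vehicle, 47.6 times with 50 ng/mL and 52.3 times with 100 ng/mL, and that of IL6ST exceeded IL11RA by 2.50, 12.4 and 13.3 times. IL6ST and IL11RA differ in transcript GC content (40.3% and 59.9%), which the fold changes followed, as described below. IL6R (ENSG00000160712, chromosome 1 from 154405193 to 154466877), the specific receptor of IL-6, was listed at 0.03 FPKM in vehicle, 0.12 with 50 ng/mL and 0.06 with 100 ng/mL. These values are a few steps of the file's last decimal, so no fold change is given, and with depth unknown no detection limit could be set.

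In vehicle the order of levels ran from IL11 through IL6, LIF, OSMR, IL6ST, CLCF1, IL11RA and LIFR down to IL6R. In both stimulated libraries OSMR, IL6 and IL6ST followed IL11, and LIF and CLCF1 came after them. IL6 and LIF in vehicle (9.31 and 9.13 FPKM) and OSMR and IL6 in the stimulated libraries were closer to each other than the stimulated libraries were for the same gene, so these neighbours were not separated. LIFR and IL11RA exchanged places between the 2 doses. IL11 exceeded 95.7% of the 24254 symbols in vehicle and 97.0% with 100 ng/mL.

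Between the stimulated libraries the group hardly differed. No tested member was more than 2-fold apart between 100 and 50 ng/mL, where 1.64% of all tested symbols were. The largest difference was that of LIF, which was lower with 100 ng/mL by a log2 fold change of -0.16, and LIFR was higher by 0.14. Both comparisons with vehicle share the single vehicle library, so similar values at the 2 doses are in part the same measurement.

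The fold changes against vehicle followed the GC content of the transcripts, which was taken as the median over the transcripts listed for each gene. Over the 12397 tested symbols with a GC content the Spearman correlation across genes was -0.77 with 50 ng/mL and -0.77 with 100 ng/mL, and it was 0.068 between the stimulated libraries. Transcripts of the signal-transducing chains held 40.2% (LIFR), 40.3% (IL6ST) and 44.8% (OSMR) G or C, and those of IL6 held 46.0%. LIF at 58.8%, CLCF1 at 59.5%, IL11RA at 59.9% and IL11 at 62.9% lay well above the median of 51.1% over the tested symbols. The 4 AT-rich genes had the 4 largest fold changes of the group at both doses. There is 1 vehicle library, so the rhFGF19 treatment and the library cannot be told apart as the source of this dependence.

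**Figure D2:**
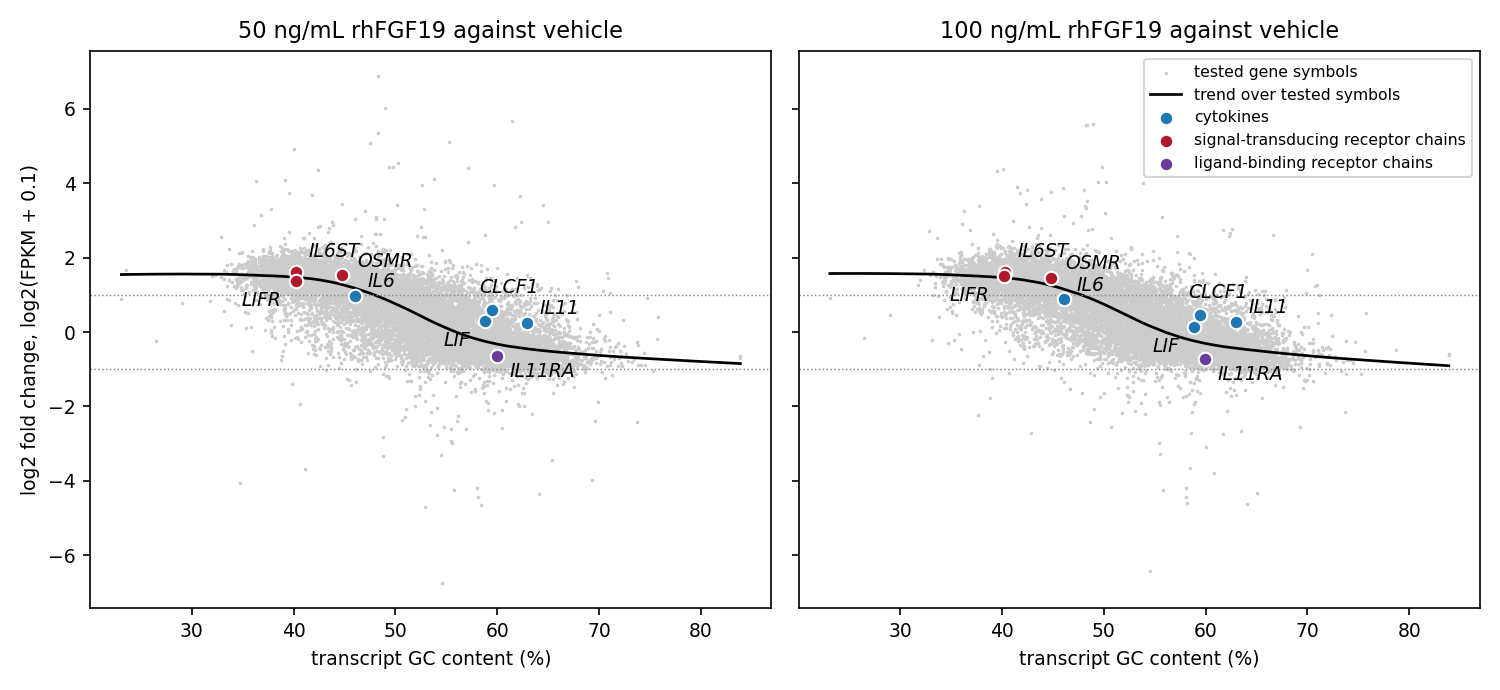
Log2 fold change against vehicle on the log2(FPKM + 0.1) scale over transcript GC content (%), with 50 ng/mL (left) and 100 ng/mL (right), with all tested symbols in grey, their locally weighted trend in black and the 2-fold limits dotted. The 3 signal-transducing chains lie close to the trend at 40.2% to 44.8% GC, and LIF, IL11 and CLCF1 lie above it at 58.8% to 62.9%.

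Set beside symbols within 1 percentage point of their own GC content, the genes changed their order. Of the 742 such neighbours of IL6ST, 89.5% were more than 2-fold higher with 50 ng/mL, with a median log2 fold change of 1.51, and IL6ST exceeded 62.9% of them. For LIFR the share of neighbours past 2-fold was 89.6% and the gene exceeded 32.0% of them with 50 ng/mL and 50.5% with 100 ng/mL. For OSMR it was 75.5%, and OSMR exceeded 72.6% of its neighbours with 50 ng/mL and 66.3% with 100 ng/mL. The signal-transducing chains therefore lay within the bulk of symbols of their base composition.

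IL6 was below the middle of its neighbours, which had a median log2 fold change of 1.22 with 50 ng/mL and 1.20 with 100 ng/mL, and it exceeded 32.2% and 27.9% of them. The GC-rich cytokines were placed differently. Neighbours of IL11 had medians of -0.48 and -0.49, and IL11 exceeded 90.0% of the 660 symbols at each dose. CLCF1, whose neighbours had medians of -0.36 and -0.35, exceeded 92.7% and 90.8% of them, and LIF exceeded 81.9% and 77.1%. IL11RA had values below those of most neighbours and exceeded 25.2% and 12.3%.

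With the trend on GC content subtracted, the log2 fold change relative to symbols of similar GC content was 0.89 with 50 ng/mL and 0.75 with 100 ng/mL for CLCF1, 0.70 and 0.71 for IL11 and 0.54 and 0.37 for LIF. It was 0.14 and 0.16 for IL6ST, 0.26 and 0.20 for OSMR and -0.11 and 0.048 for LIFR. IL6 had -0.20 and -0.27, and IL11RA had -0.32 and -0.43. On this scale no gene of the group passed 2-fold, and the cytokines other than IL6 held the highest values. The log2 ratios between the stimulated libraries had an SD of 0.32 over all tested symbols. This SD includes nothing of the vehicle library, so it does not measure the spread of values against vehicle. With the GC trend subtracted, 3.74% of all tested symbols were still more than 2-fold higher and 5.13% lower with 50 ng/mL.

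**Figure D3:**
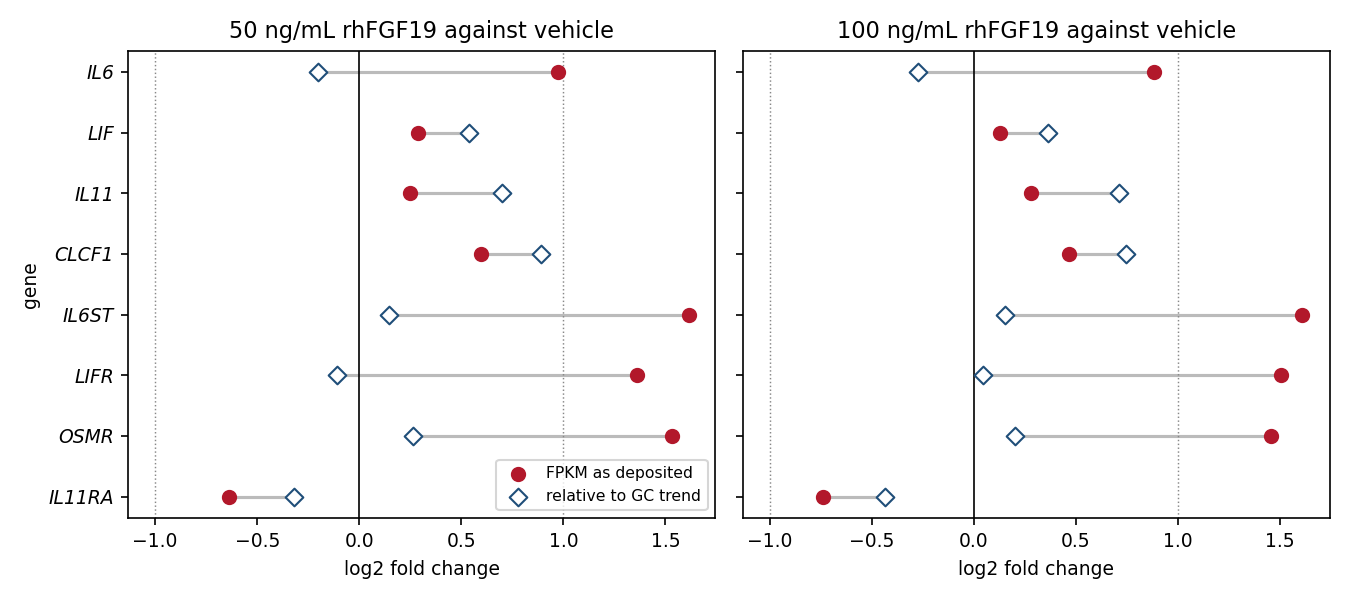
Log2 fold change against vehicle of the 8 genes that passed the filter, from the FPKM as deposited (filled circles) and relative to the GC trend (open diamonds), with the 2-fold limits dotted. IL6, IL6ST, LIFR and OSMR move to between -0.27 and 0.26, whereas CLCF1, IL11 and LIF move up to between 0.37 and 0.89.

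Promoters, taken as 250 bases before to 50 after a RefSeq start site, were matched for 7 of the 9 genes, the exceptions being LIF and CLCF1, in 10 windows (RefSeq, GRCh38.p14). On both strands they were searched for TTCNNNGAA, the core of a STAT site, for an NF-κB site and for TGANTCA, an AP-1 site. The first was in 7.66% of all 35116 windows, the second in 0.558% and the third in 7.71%. The windows of IL6, IL11 and LIFR are shown as 1 example of each motif upstream of a start site, with the match in capitals, 5′ to 3′ on the strand of the gene.
IL6, chr7:22726950-22727249, plus strand: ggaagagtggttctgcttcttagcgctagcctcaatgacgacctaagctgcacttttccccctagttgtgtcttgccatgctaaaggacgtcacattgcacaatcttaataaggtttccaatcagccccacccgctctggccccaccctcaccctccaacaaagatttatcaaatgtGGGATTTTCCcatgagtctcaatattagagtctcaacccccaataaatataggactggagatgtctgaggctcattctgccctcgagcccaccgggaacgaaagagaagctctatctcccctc
IL11, chr19:55370414-55370713, minus strand: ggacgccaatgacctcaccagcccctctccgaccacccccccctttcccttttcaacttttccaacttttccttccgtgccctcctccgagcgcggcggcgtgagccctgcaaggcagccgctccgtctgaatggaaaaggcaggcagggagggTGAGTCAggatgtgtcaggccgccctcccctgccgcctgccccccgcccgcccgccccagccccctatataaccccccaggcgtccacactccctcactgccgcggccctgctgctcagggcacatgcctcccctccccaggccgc
LIFR, chr5:38595356-38595655, minus strand: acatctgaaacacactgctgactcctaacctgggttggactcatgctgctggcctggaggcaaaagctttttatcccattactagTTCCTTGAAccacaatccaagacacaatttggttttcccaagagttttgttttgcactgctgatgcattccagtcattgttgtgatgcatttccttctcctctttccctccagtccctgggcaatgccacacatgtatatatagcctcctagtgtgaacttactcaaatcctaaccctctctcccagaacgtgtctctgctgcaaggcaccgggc

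The NF-κB match in the IL6 window began at position -73 from the start site and was the only match to that motif in the 10 windows. The start site of that window lies inside the listed IL6 locus, which begins further upstream. The TGANTCA match in the IL11 window began at position -96, and OSMR and IL6R each had 1 match after their start sites, at positions 3 and 37. TTCNNNGAA was found only in LIFR, in 2 of its 3 windows, at positions -165 and -182 from the respective start sites. IL6ST and IL11RA had no match to any of the 3 motifs in these windows. The pentamer ATTTA, the core of AU-rich elements that shorten the life of cytokine mRNAs, occurred 3.93 times per kilobase in the longest listed transcript of IL6 and 3.95 times in that of IL11, although IL11 was the most GC-rich gene of the group. It occurred 3.09 times in IL6ST and 0.33 times in IL11RA, beside a median of 0.90 over the tested symbols.

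Other family genes were mostly low. CTF1, which encodes cardiotrophin-1, was at 6.33 FPKM in vehicle, 4.92 with 50 ng/mL and 5.18 with 100 ng/mL. IL31RA, which pairs with OSMR for IL-31, was at 0.49, 1.65 and 1.41 FPKM, with log2 fold changes of 1.57 and 1.36. It was the only one of the 4 further family genes past the filter that was more than 2-fold higher, beside 36.3% of all tested symbols at both doses. IL27RA, which pairs with gp130 for IL-27, was at 2.32, 3.68 and 3.71 FPKM, and EBI3, the soluble partner chain of IL-27, at 2.07, 1.23 and 1.85 FPKM. Relative to the GC trend IL31RA was at 0.28 and 0.088 and IL27RA at 0.84 and 0.84. CTF1 was then at 0.095 and 0.15 and EBI3 at -0.25 and 0.29. OSM, the ligand of OSMR, was listed at 0, 0.03 and 0 FPKM, and CNTFR at 0.06, 0 and 0 FPKM. IL27 and IL31 were not among the listed symbols.

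Of the 12 receptor-proximal signalling genes 11 passed the filter, with a median GC content of 50.0%. At both doses 6 of them exceeded vehicle by more than 2-fold, beside 36.3% of all tested symbols. JAK1, the main kinase on gp130, was at 3.20 FPKM in vehicle, 8.56 with 50 ng/mL and 8.85 with 100 ng/mL, and STAT3 at 5.68, 12.5 and 12.4 FPKM. PTPN11 (the phosphatase SHP2) and SOS1 were also more than 2-fold higher at both doses, with log2 fold changes of 1.63 and 1.13 with 50 ng/mL. JAK2, another gp130-bound kinase, was at 0.19, 0.70 and 0.67 FPKM. TYK2, the remaining JAK kinase of the list, was lower in both stimulated libraries. It was at 28.86, 17.55 and 18.47 FPKM, with log2 fold changes of -0.71 and -0.64. Relative to the GC trend JAK1, STAT3 and PTPN11 were at 0.45 to 0.56 with 50 ng/mL, all above IL6ST, and SOS1 was at -0.37.

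Of the 8 inhibitors 6 passed the filter. At both doses 3 of them exceeded vehicle by more than 2-fold, beside 36.3% of all tested symbols. Among these 3 were the phosphatase genes PTPN2, at 0.38, 1.64 and 1.26 FPKM, and PTPN1, at 8.98, 22.1 and 22.3 FPKM. SOCS3, the feedback inhibitor of gp130, was at 14.1 FPKM in vehicle, 17.6 with 50 ng/mL and 17.3 with 100 ng/mL. Both receptor-shedding proteases were more than 2-fold higher at both doses, beside 36.3% of all tested symbols. ADAM10 had log2 fold changes of 1.82 and 1.71 and ADAM17 had 1.51 and 1.56, from 0.86 and 0.34 FPKM. Relative to the GC trend ADAM10 was at 0.35 and 0.26 and ADAM17 at 0.075 and 0.15. Like LIFR, the genes ADAM17, JAK2, PTPN2, PIAS1 and IL31RA were below 0.5 FPKM in vehicle and passed the filter through the stimulated libraries. ADAM17 and TYK2, and CCND1, TIMP1, SAA1 and TGFB1 below, fell outside the naming rule and were chosen after their values were seen.

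Of the 23 STAT3 target genes 16 passed the filter. At both doses 2 of them exceeded vehicle by more than 2-fold, beside 36.3% of all tested symbols. These were HIF1A, the oxygen-regulated transcription factor, with log2 fold changes of 1.60 and 1.45, and MCL1, a survival factor, with 1.23 and 1.14. Relative to the GC trend HIF1A was at 0.10 and -0.036 and MCL1 at -0.013 and -0.085. On that scale the list ran from TIMP1 at -0.55 to CCND1 at 1.39 with 50 ng/mL. With 100 ng/mL it ran from SAA1 at -0.73 to CCND1 at 1.40. As deposited, CCND1 had log2 fold changes of 0.91 and 0.94. The median of the list was -0.082 with 50 ng/mL and -0.11 with 100 ng/mL, below that of all tested symbols, and 0.14 and 0.12 relative to the GC trend, with a median GC content of 57.6%. Of the 10 factors that control the decay of IL6 mRNA and other cytokine mRNAs 9 passed. RC3H2 (0.54, 1.71 and 1.95 FPKM) and ZFP36L1 (8.17, 19.4 and 19.1 FPKM) were more than 2-fold higher at both doses, beside 36.3% of all tested symbols. Relative to the GC trend RC3H2 was at 0.12 and 0.32 and ZFP36L1 at 0.99 and 0.97, beside a list median of 0.37 and 0.32. ZC3H12A, the endonuclease Regnase-1, was at 35.3 FPKM in vehicle, 23.3 with 50 ng/mL and 22.1 with 100 ng/mL. Of the 5 cytokines that induce IL6, 4 were listed and 3 passed the filter. IL1A (0.68, 2.78 and 2.97 FPKM) and IL1B (41.9, 102 and 95.7 FPKM) were more than 2-fold higher at both doses, beside 36.3% of all tested symbols. TGFB1 was at 134, 93.8 and 94.0 FPKM. Relative to the GC trend IL1A was at 0.39 and 0.50, IL1B at 0.40 and 0.32 and TGFB1 at -0.33 and -0.34. Of the 70 genes of these lists other than the 9, 66 were in the table and 51 passed the filter, of which 19 were more than 2-fold higher with 50 ng/mL and 18 with 100 ng/mL, and none was more than 2-fold lower, shares close to those of all symbols.

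**Figure D4:**
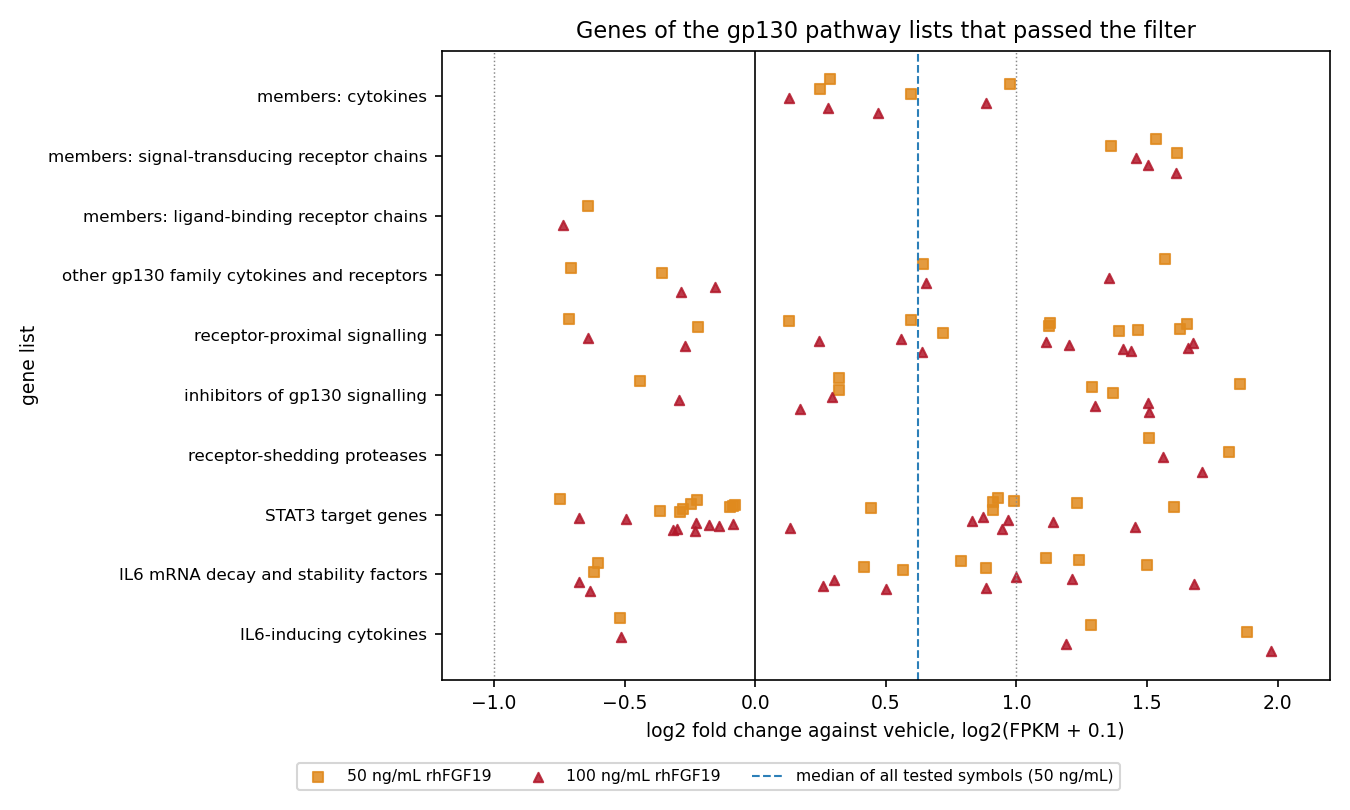
Log2 fold change against vehicle (log2(FPKM + 0.1) scale) of each gene that passed the filter, by list, with 50 ng/mL (squares) and 100 ng/mL (triangles), with the 2-fold limits dotted and the median of all tested symbols dashed. The signal-transducing chains and shedding proteases lie wholly beyond 2-fold, and the STAT3 target genes spread around 0.

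Among the 58 other genes of these lists that passed the filter, likeness was measured as the Euclidean distance between the pairs of log2 fold changes, which rest on 3 libraries with a shared vehicle. Nearest to IL6ST was PTPN11 at a distance of 0.047, nearest to OSMR were HIF1A at 0.068 and JAK2 at 0.086, and nearest to LIFR were PIAS1 at 0.0099 and JAK1 at 0.071. VEGFA and PIM1 were nearest to IL6, at 0.049 and 0.083. IL11 lay nearest to SOCS3 at 0.073, LIF to PIAS3 at 0.054, CLCF1 to ELAVL1 at 0.043 and IL11RA to ZC3H12A at 0.075.

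Reads of overlapping genes are a further limit, since no strand setting is given in the sources used here. CLCF1 lies wholly within RAD9A, which is on the opposite strand and was at 6.85 FPKM in vehicle and 5.14 and 5.04 FPKM after the lower and the higher dose. AP003419 overlaps CLCF1 by 9417 bases on the same strand, where a strand setting would not separate them, and was at 0.49, 0.12 and 0.14 FPKM. OSMR overlaps RICTOR by 7677 bases on the opposite strand, and RICTOR was at 0.50, 1.78 and 1.74 FPKM. IL6 overlaps IL6-AS1, which was at 1.15, 0.94 and 1.17 FPKM. The part of these genes in the values above was not tested.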

How the data were processed

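Poly(A) mRNA of LX-2 cells was sequenced in 3 libraries. The authors mapped reads with HISAT2 and deposited FPKM values with 2 decimals for 26108 genes. The submitters' processing notes list HISAT2 2.0, StringTie 1.3.0, Bowtie 0.12.2 and the builds hg19 and mm8 without a role. The deposited coordinates overlapped the GRCh38 positions of GENCODE v29 for 99.7% of the 25531 identifiers found there, so they were read as GRCh38. Read counts, and therefore depth, cannot be had from these values.

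Rows sharing a symbol were summed. Libraries were compared on log2(FPKM + 0.1) without a test, for symbols that averaged 0.5 FPKM or more over the libraries. Transcript GC content and length were medians over the listed transcripts in GENCODE v29, and trends were lowess fits (span 0.3). The procedure was tested on simulated data. These had larger imposed changes than any of the 9 genes showed, less noise and a straight GC trend, so the test does not cover changes of the size reported. Beyond the 9 genes, those named were past 2-fold in the same direction at both doses with a mean of at least 1 FPKM, at most 5 per list, together with every other family gene past the filter and the 2 nearest genes by fold change, apart from those stated as chosen after their values were seen and those named at low or absent levels. Some genes that the rule names are not reported here. The members and lists were chosen with earlier results of these data known. Alternatives were other pseudocounts, filters, scalings, thresholds and removal of trends. Python 3.11.15, NumPy 2.4.6, pandas 2.3.3 and statsmodels 0.14.6 were used.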

Additional observations from a re-analysis of the deposited data

How the results depend on the processing

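No paired analysis was possible because each condition had 1 library, so no library could be left out either. Depth is unknown, so the precision of low values such as those of LIFR and IL6R could not be given. With the trend on GC content removed, 0 of the 8 genes were past 2-fold at either dose instead of 3, the median log2 fold change was 0.20 with 50 ng/mL and 0.18 with 100 ng/mL, and LIFR with 50 ng/mL turned to -0.11. Over all tested symbols 3.74% were then higher and 5.13% lower with 50 ng/mL, with a median of 0.0075, so 0 of 8 is near the background. With the trend on transcript length removed, 1 gene (OSMR) was past 2-fold with 50 ng/mL, and with 100 ng/mL 3 were, LIFR and OSMR higher and IL11RA lower, with medians of 0.35 and 0.25. Of all tested symbols, 13.6% were then higher and 15.2% lower with 100 ng/mL. Quantile normalization gave a median of 0.54 with 50 ng/mL and 3 genes past 2-fold at each dose, IL6ST and OSMR higher and IL11RA lower. Over all tested symbols the median was then 0.10 with 50 ng/mL, with 9.19% higher and 9.84% lower. With 100 ng/mL, 8.42% were higher and 9.02% lower. LIFR was also not past 2-fold with a pseudocount of 1 FPKM, and it did not pass the filter at a mean of 1 FPKM. Rescaling to TPM added IL6 with 50 ng/mL. At a limit of 1.5-fold, 6 genes passed with 50 ng/mL and 5 with 100 ng/mL, IL11RA among them as lower, beside 50.9% of all tested symbols higher and 13.5% lower with 50 ng/mL and 50.8% and 12.5% with 100 ng/mL. Of 112 values for single genes under the pseudocounts, scalings and trend removals, 61 moved by less than a spread of 0.23, the SD of the log2 ratios between the stimulated libraries divided by the square root of 2, and 12 had another sign. LIF, IL11, CLCF1, IL6 and LIFR were the genes whose sign turned under at least 1 scaling or trend removal. The cause was not tested.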
